A study of Saccharomyces cerevisiae with 6 samples.

Results

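The messenger RNAs of the yeast decapping machinery were followed in cells in which the decapping enzyme, or the deadenylases that act before it, had been depleted. The set was fixed by gene name: the enzyme genes DCP1 and DCP2, the activator genes EDC1, EDC2, EDC3, DHH1, PAT1, LSM1 and SCD6, and XRN1, the exonuclease gene. Of these 10 genes, 9 were among the 4909 genes listed, and EDC1 was not analysed here. The question was whether the RNAs that encode the machinery respond when the machinery is lost.

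In budding yeast (Saccharomyces cerevisiae) most messenger RNAs are first shortened at the poly(A) tail by the Ccr4-Not complex, in which Ccr4 and Pop2 are the deadenylases. Dcp2, held by its partner Dcp1, then removes the 5′ cap, and Xrn1 degrades the uncapped RNA from that end. Pat1, the helicase Dhh1, Edc3, Scd6, the small proteins Edc1 and Edc2, and the ring formed by Lsm1 with other Lsm proteins help to recruit or stimulate the enzyme.

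Native RNA was read directly on nanopores, so that each read stands for a molecule and carries an estimate of its tail length. The 6 libraries came from 3 strains with 2 replicates each: BY4741, called wild type here, LMA5574, which carries the Dcp2 degron, and LMA5601, which carries the Ccr4/Pop2 degron. All cultures, the wild type included, were taken in exponential growth (30 °C, YPD, OD600 of 0.4) after 1 h with auxin (IAA, 100 µM) and β-estradiol (1 µM). Nothing in the labels says whether replicates were separate cultures, so p-values measure the spread between these libraries, which may be technical.

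The wild type is Mat a and carries deletion alleles of leu2, his3, ura3 and met15. Both degron strains are described as BY4741 derivatives, also Mat a, with a TAO3_E1493Q allele, an inserted A at -308 of RME1, and a construct at trp1-1 that holds TRP1, the estradiol-dependent factor Z3EV and TIR, the auxin receptor that the degron needs. LMA5574 adds a polyG-3Flag-AID tag with kanMX at DCP2. LMA5601 adds an AID-3Flag tag to CCR4 and AID-KanMX6 at CAF1, which is POP2. AID is the auxin-inducible degron, which directs a tagged protein to destruction rather than its RNA. Each comparison with the wild type is thus between strains that differ in several alleles, while the comparison of both degrons is between strains that share the TAO3, RME1 and TIR alleles.

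Depth ranged from 1067250 to 8450296 reads per library over the listed genes. The highest total belonged to replicate 1 of the Ccr4/Pop2 degron, in which all counts were multiples of 4 (100% of genes, against 23.8% to 25.9% elsewhere), so they may not be numbers of separate reads. Libraries differed along the replicate number. The log2 level in replicate 2 minus replicate 1 fell with coding length (Spearman coefficient of -0.534 over 4908 genes and -0.3 over the 9 members), and its cause was not tested. Same-numbered libraries deviated together in RNA level, with coefficients of 0.794 to 0.823 across genes. RNA levels were therefore tested first without and then with a block for the replicate number. The 6 Mat a-specific marker genes were all listed, at 44.5 to 391 CPM (TMM-scaled counts per 1000000 reads), and of 4 genes specific to the other mating type only SAG1 was listed, at 3.0 to 22.8 CPM. These ranges pool the strains. Against the wild type, with the block (edgeR adjusted p under 0.05), all 6 were lower in Dcp2 degron cells, as were 19.7% of all genes. MFA1, MFA2, BAR1 and AGA2 were higher in Ccr4/Pop2 degron cells, as were 14.2%, and STE2 and STE6 were not called there. SAG1 was higher in Dcp2 degron cells and lower in Ccr4/Pop2 degron cells, on 18 and 13 reads in the wild type and 28 and 7 in the latter. Without the block none of these marker genes was called in either degron against the wild type (edgeR adjusted p of 0.275 or more). Of the 4 genes deleted in BY4741, HIS3 was listed, at 50.7 to 85.9 CPM, and the his3 allele of this strain is known to remove part of the gene only.

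The end of the DCP2 coding sequence is shown because the strain label writes the degron tag and kanMX after the gene name, the usual notation for a tag joined to the end of the coding sequence. It lies on the minus strand of chromosome XIV (R64 assembly, chrXIV:402652-402711) and the stop codon is in capitals.
DCP2: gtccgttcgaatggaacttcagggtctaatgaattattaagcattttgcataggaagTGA

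Short sites for Puf proteins, which bind RNA downstream of coding sequences and recruit Ccr4-Not, are shown because LMA5601 is depleted of the deadenylases they recruit. The 200 bases after each stop codon were searched on the sense strand for TGTANATA, the Puf3 type, and TGTANANTA, the Puf4 type, a search chosen after the values had been seen. Of 6021 protein-coding genes, 14.0% held the first and 7.37% the second, and a gene can hold both. LSM1 and SCD6 held both, DCP2 held the second, and the other 7 genes held neither. A match describes letters in this window and not binding. The matches are in capitals, and no link between a match and a change in tail or level was tested.
LSM1, Puf3 type (chrX:186968-186991, minus strand): gccgtattTGTATATAaattaata
LSM1, Puf4 type (chrX:186943-186967, minus strand): tatttaaaTGTAAAATAtatacagt
SCD6, Puf3 type (chrXVI:793767-793790, plus strand): attcagtaTGTACATAcaaaaatc
SCD6, Puf4 type (chrXVI:793742-793766, plus strand): tgtttctaTGTAAATTAagtatatc
DCP2, Puf4 type (chrXIV:402579-402603, minus strand): cgaagcgaTGTAAAGTAaaatacat

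None of the 10 genes has an intron, and none overlaps another gene in the annotation of the R64 assembly. XRN1 has the longest coding sequence, at 4587 bases, and EDC2 the shortest, at 438 bases. For DCP1, DCP2, EDC2, EDC3, SCD6 and XRN1 the next gene downstream lies on the opposite strand, at a distance of 18 bases for EDC3 and 126 to 290 bases for the other 5. Whether the authors' counting used strand is not given in the sources used here.

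RNA levels of the enzyme genes came first. With the block, DCP2 RNA fell in Dcp2 degron cells against both other strains. DCP1 RNA also fell, by less and under TMM scaling alone, and for neither gene was a difference between the Ccr4/Pop2 degron and the wild type detected. DCP2 (YNL118C) stood at 50.9 and 54.7 CPM in the wild type, 22.8 and 22.7 CPM in Dcp2 degron cells, and 60.0 and 49.4 CPM in Ccr4/Pop2 degron cells (replicates 1 and 2). Both Dcp2 degron libraries thus lay below the other 4, and they rested on 37 and 45 reads.

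The log2 change in DCP2 level against the wild type was -1.21 with a standard error of 0.267, and 1.14% of all genes had a lower one. edgeR's quasi-likelihood test gave an adjusted p of 0.258 without the block. With the block the change was -1.20 ± 0.216 (SE) and the adjusted p was 0.000273. Under total-count scaling with the block it was -0.68, with an adjusted p of 0.00961. Against the Ccr4/Pop2 degron, the strain with the shared background alleles, DCP2 was again the lower one in Dcp2 degron cells. That difference was 1.27 ± 0.263 (SE; edgeR adjusted p = 0.111), and with the block 1.29 ± 0.201 (adjusted p = 5.22e-05). Whether the tag at DCP2 itself alters this RNA, or how its reads are assigned, was not tested.

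DCP1 (YOL149W), the activating partner of Dcp2, stood at 62.3 and 105 CPM in the wild type, 35.2 and 77.8 CPM in Dcp2 degron cells, and 56.6 and 103 CPM in Ccr4/Pop2 degron cells. In every strain its replicate 2 library was the higher one, so the groups overlapped although each Dcp2 degron library was below its same-numbered counterparts. The change in Dcp2 degron cells was -0.56 ± 0.518 (SE; edgeR adjusted p = 0.697), and with the block -0.60 ± 0.175 (adjusted p = 0.0118). Total-count scaling with the block left -0.086, with an adjusted p of 0.711. Against the wild type the Ccr4/Pop2 degron differed by -0.082 ± 0.513 (SE; edgeR adjusted p = 0.993) in DCP1.

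**Figure D1:**
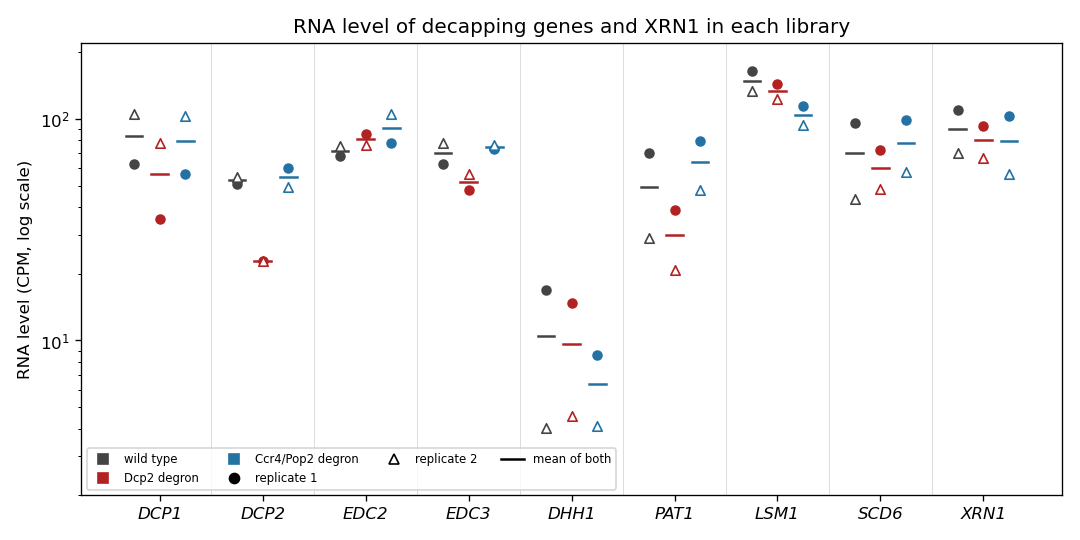
RNA level in CPM (log axis) of 9 genes in each of the 6 libraries, with circles for replicate 1, open triangles for replicate 2, colours for the strains and bars for the mean of both. Both Dcp2 degron values of DCP2, at 22.8 and 22.7 CPM, lie below the other 4. The replicate 1 points of DHH1, PAT1, LSM1, SCD6 and XRN1 lie above those of replicate 2 in all 3 strains.

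Among the activators, PAT1 had the largest difference between the degrons. PAT1 (YCR077C), which links the Lsm ring to the enzyme, stood at 70.0 and 29.0 CPM in the wild type, 38.9 and 20.7 CPM in Dcp2 degron cells, and 79.7 and 48.0 CPM in Ccr4/Pop2 degron cells. Replicate 1 was the higher library in all 3 strains, and the wild-type values spanned most of the range of both degrons. Between the degrons the groups did not overlap.

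In PAT1 the Ccr4/Pop2 degron exceeded the Dcp2 degron by 1.12 ± 0.532 on the log2 scale (SE; edgeR adjusted p = 0.368), and by 1.08 ± 0.195 with the block (adjusted p = 0.000203). Same-numbered differences were 1.04 and 1.21. Against the wild type PAT1 was lower in Dcp2 degron cells by the block (-0.73 ± 0.214, SE; adjusted p = 0.0118; without it -0.75 and 0.596), but total-count scaling with the block gave -0.21 and an adjusted p of 0.433. In Ccr4/Pop2 degron cells its change against the wild type was 0.37 ± 0.519 (SE; edgeR adjusted p = 0.960), and 0.35 with the block (adjusted p = 0.161).

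LSM1 (YJL124C), a subunit of the cytoplasmic Lsm ring that binds the 3′ end of deadenylated RNA, was lowest in Ccr4/Pop2 degron cells. Its levels were 164 and 134 CPM in the wild type, 144 and 123 CPM in Dcp2 degron cells, and 114 and 93.9 CPM in Ccr4/Pop2 degron cells. Both Ccr4/Pop2 degron libraries lay below the other 4, and replicate 1 was the higher library in every strain. The change against the wild type was -0.51 ± 0.306 (SE; edgeR adjusted p = 0.767), and -0.51 ± 0.137 with the block (adjusted p = 0.0099). Same-numbered differences were -0.52 and -0.51. With the block and without the library whose counts are multiples of 4, the change was -0.53 and the adjusted p 0.0737. Against the Dcp2 degron the difference was -0.36 (edgeR adjusted p = 0.605; 0.0389 with the block).

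EDC3 (YEL015W), a decapping enhancer that also targets single transcripts, stood at 62.8 and 78.1 CPM in the wild type, 47.5 and 56.1 CPM in Dcp2 degron cells, and 73.3 and 76.1 CPM in Ccr4/Pop2 degron cells. The Dcp2 degron libraries lay below the other 4. With the block the difference between the degrons was 0.55 ± 0.165 (SE; edgeR adjusted p = 0.0108; 0.404 without). The change of -0.43 against the wild type had an adjusted p of 0.0631 with the block and 0.558 without. Total-count scaling turned that change to 0.083, where the median of all genes moved to 0.51. The sign of the EDC3 change against the wild type thus depended on the scaling, while it lay below the median gene under both.

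EDC2 (YER035W), which encodes a small stimulator of Dcp2, stood at 67.9 and 75.7 CPM in the wild type, 85.2 and 76.3 CPM in Dcp2 degron cells, and 77.6 and 105 CPM in Ccr4/Pop2 degron cells. All 4 degron libraries exceeded both wild-type libraries, the margin being smallest for replicate 2 of the Dcp2 degron. The changes against the wild type were 0.17 ± 0.295 and 0.34 ± 0.294 (SE), with edgeR adjusted p-values of 0.843 and 0.893, and 0.499 and 0.200 with the block. The comparisons share the wild-type libraries.

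SCD6 (YPR129W), a repressor of translation initiation that binds the enzyme, ranged from 43.5 CPM (wild type, replicate 2) to 98.6 CPM (Ccr4/Pop2 degron, replicate 1). Its groups overlapped in all 3 comparisons, and edgeR gave adjusted p-values of 0.874, 0.982 and 0.728 for its changes of -0.23, 0.16 and 0.39. The third comparison, between the degrons, had 0.0957 with the block.

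DHH1 (YDL160C), the DEAD-box helicase gene, was the least counted member, with 33 and 5 wild-type reads, 24 and 9 reads in Dcp2 degron cells, and 80 and 6 in Ccr4/Pop2 degron cells. Its levels were 17.0 and 4.03 CPM, 14.8 and 4.55 CPM, and 8.57 and 4.11 CPM in the order of the strains. The replicate 2 libraries of all strains agreed within 4.03 to 4.55 CPM, and the replicate 1 libraries were all higher. Its changes against the wild type were -0.22 ± 0.812 and -0.66 ± 0.784 (SE; edgeR adjusted p = 0.932 and 0.946), and -0.14 and -0.84 with the block (0.814 and 0.0943). The second was called in a blocked fit of only those groups (-0.89, edgeR adjusted p = 0.035), but was -0.14 (0.943) with the block and without replicate 1 of the Ccr4/Pop2 degron. Between the degrons the difference was -0.70 with the block (edgeR adjusted p = 0.135) and -1.13 with total-count scaling as well (0.0186). Across members, DHH1 also had the largest shift between replicate numbers, -1.61 on the log2 scale for replicate 2 minus replicate 1, lower than in all but 0.591% of genes. No listed gene had under 20 reads in replicate 1 of either degron, against 178 to 788 genes in the other libraries. Whether this listing favoured low-count genes that are high in replicate 1 was not tested.

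XRN1 (YGL173C), which encodes the exonuclease that acts after decapping, was called in no comparison under TMM scaling, with or without the block. It stood at 110 and 70.0 CPM in the wild type, 93.2 and 66.7 CPM in Dcp2 degron cells, and 103 and 56.2 CPM in Ccr4/Pop2 degron cells. All 3 replicate 1 libraries exceeded all 3 replicate 2 libraries. The changes were -0.18 ± 0.420 in Dcp2 degron cells and -0.17 ± 0.418 in Ccr4/Pop2 degron cells (SE), with edgeR adjusted p-values of 0.889 and 0.980, and 0.491 and 0.464 with the block. Between the degrons it was 0.0061 ± 0.417 (SE; edgeR adjusted p = 0.996), with a sign that turned under most other settings, and total-count scaling with the block gave -0.42 (adjusted p = 0.0314).

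**Figure D2:**
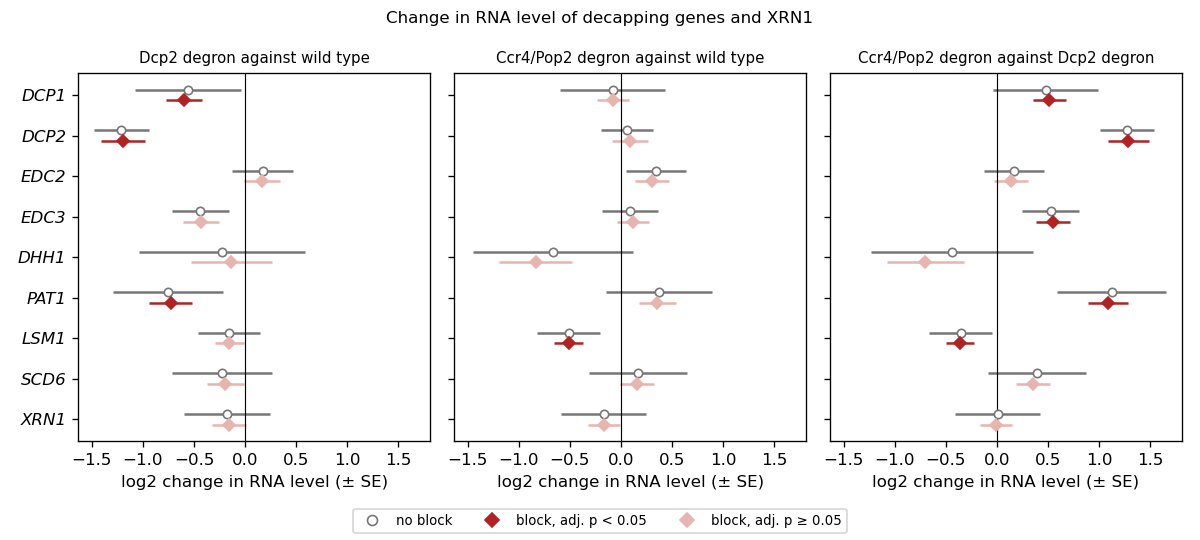
Log2 change in RNA level (± SE) of the same 9 genes in 3 comparisons, with open circles for the model without the block and diamonds for the model with the replicate number as a block, dark where the adjusted p is under 0.05. DCP2 is the farthest from 0 in the outer panels, at -1.20 and 1.29 with the block.

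As a group, 0 of the 9 members were called (adjusted p under 0.05) for RNA level in Dcp2 degron cells against the wild type without the block, where edgeR called 0% of all genes, 579 genes had an unadjusted p under 0.05 (among members DCP2 alone) and DESeq2 called 53 genes and 0 members. With the block 3 of 9 were called lower (DCP1, DCP2 and PAT1) against 19.7% of all genes, and 0 higher against 17.6%. The median change was -0.23 over the 9 members and -0.016 over all genes. Both Dcp2 degron libraries exceeded both wild-type libraries in 1 member (EDC2), against 21.8% of all genes, and lay below them in 2 members (DCP2 and EDC3), against 20.4%.

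For Ccr4/Pop2 degron cells relative to the wild type, edgeR called 0.0815% of all genes and 0 members without the block, and DESeq2 called 33 genes and 0 members. No member had an unadjusted p under 0.05 there, against 392 genes. With the block 1 member was called lower (LSM1) against 12.8% of all genes, and 0 higher against 14.2%. The median change was 0.059 over the members and -0.0066 over all genes, and the libraries did not overlap for EDC2, which was higher as in 16.5% of genes, and LSM1, which was lower as in 15.6%. Between the degrons, without the block, edgeR called 0% of all genes, with 803 at an unadjusted p under 0.05, among them DCP2 and no other member. DESeq2 called 155 genes and 0 members there. With the block 4 members were called higher in Ccr4/Pop2 degron cells (DCP1, DCP2, EDC3 and PAT1) against 26.3% of all genes, and 1 lower (LSM1) against 20.8%, which makes 5 against 47.1% in either direction. The libraries of both degrons did not overlap for 3 members that were higher in Ccr4/Pop2 degron cells (DCP2, EDC3 and PAT1), against 23.4% of genes, and for LSM1, which was lower, against 22.2%. Leaving out replicate 1 of the Ccr4/Pop2 degron left 2 of these 5 calls, DCP2 and PAT1. The median difference between the degrons was 0.39 over the members and 0.085 over all genes. With 9 members, 1 or 2 genes set these shares apart from the background, so the group as a whole carries no result beyond its single genes.

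Levels are shares of the reads of a library. Directions are relative to the median gene, since total-count scaling moved the median change of all genes to 0.51 in Dcp2 degron cells against the wild type. Under that scaling with the block, 3 members were called in that comparison, EDC2 (0.69, edgeR adjusted p = 0.00156) and LSM1 (0.36, 0.0397) higher, against 50.7% of all genes, and DCP2 lower, against 6.11%. For Ccr4/Pop2 degron cells relative to the wild type LSM1 was then at -0.40 (edgeR adjusted p = 0.0403), the 1 member called lower, against 8.82% of genes, and 0 were called higher, against 20.2%. Between the degrons the median of all genes moved to -0.33, DCP2 and PAT1 were still called higher, against 9.64% of genes, LSM1, DHH1 and XRN1 were called lower, against 41.1%, and DCP1 and EDC3 were not called. In bulk RNA, fewer cells that hold a transcript and less of it per cell cannot be told apart.

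Tail length was then compared for the 8 members with at least 20 reads in every library, among 3949 genes tested in the same way. For 7 of them, all but PAT1, both Ccr4/Pop2 degron tails exceeded those of the other 4 libraries. Among these 8, DCP2 was the one member with longer tails in both Dcp2 degron libraries than in either wild-type library. The median gene had a tail of 38.4 and 42.9 nt in the wild type, 31.4 and 38.8 nt in Dcp2 degron cells, and 50.6 and 51.6 nt in Ccr4/Pop2 degron cells (replicates 1 and 2), so members are read against this shift.

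**Figure D3:**
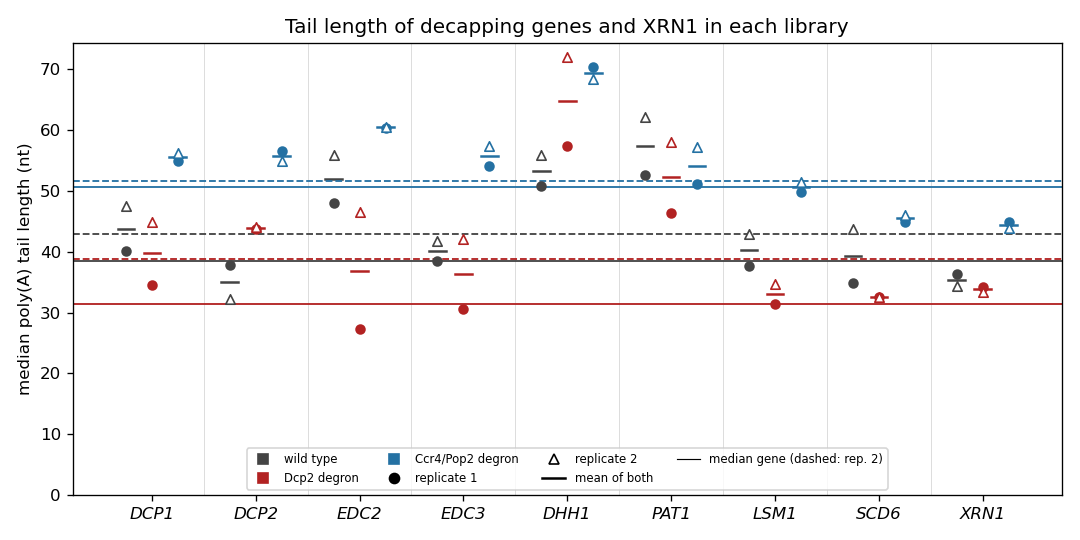
Median poly(A) tail length in nt of 9 genes in each library, with symbols as in the plot of RNA level and horizontal lines for the median gene of each library (solid for replicate 1, dashed for replicate 2). Tails of DCP2 were 43.7 and 44.0 nt in Dcp2 degron cells, where the gene is tagged, above both wild-type values. Those of PAT1 overlapped between all strains.

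The median tail of DCP2 was 37.8 and 32.3 nt in the wild type, 43.7 and 44.0 nt in Dcp2 degron cells, and 56.5 and 54.8 nt in Ccr4/Pop2 degron cells. The 3 strains did not overlap, and the Dcp2 degron tails rested on 37 and 45 reads. In Dcp2 degron cells 1.67% of all genes had longer tails in both libraries than in both wild-type libraries, while 44.9% had shorter ones, as had 4 of the 8 members (EDC2, LSM1, SCD6 and XRN1). The log2 tail change of DCP2 there was 0.33 ± 0.129 (SE; limma adjusted p = 0.233), against a median of -0.22 over all genes. Whether the tag at the gene alters the tail measured in this strain was not tested. DCP2 stood above 99.7% of genes in this tail change. In Ccr4/Pop2 degron cells its tail change was 0.67 ± 0.129 (SE; limma adjusted p = 0.165), above 98.7% of genes, where the median was 0.30. The comparisons share the wild-type libraries, in which the tail of DCP2 was short in replicate 2, longer than in 4.79% of genes, and close to the middle in replicate 1, longer than in 46.2% of genes.

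PAT1 tails were 52.6 and 62.1 nt in the wild type, 46.4 and 58.0 nt in Dcp2 degron cells, and 51.0 and 57.1 nt in Ccr4/Pop2 degron cells. The ranges of all 3 strains overlapped. PAT1 reads numbered 136 and 36 in the wild type, 63 and 41 in Dcp2 degron cells, and 744 and 70 in Ccr4/Pop2 degron cells. Among the 8 members, 7 had tails in both Ccr4/Pop2 degron libraries that exceeded both wild-type values, as had 90.0% of all genes, while 0.253% had lower ones, and PAT1 was the exception, with overlap. Its log2 tail change was -0.082 ± 0.162 (SE; limma adjusted p = 0.652), and 0.354% of genes had a lower one.

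In the wild type PAT1 had one of the longer tails, above 95.0% and 99.3% of genes in replicates 1 and 2, and in Dcp2 degron cells it was above 95.7% and 98.7%. In Ccr4/Pop2 degron cells it was above 52.3% and 83.5%. Relative to the median gene of its library the PAT1 tail was 0.45 and 0.54 longer on the log2 scale in the wild type, 0.56 and 0.58 in Dcp2 degron cells, and 0.012 and 0.15 in Ccr4/Pop2 degron cells, so that on this scale the last strain stood apart from the others. limma on tails centred on the library median gave -0.41 against the wild type (adjusted p = 0.753) and -0.49 against the Dcp2 degron (adjusted p = 0.110).

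**Figure D4:**
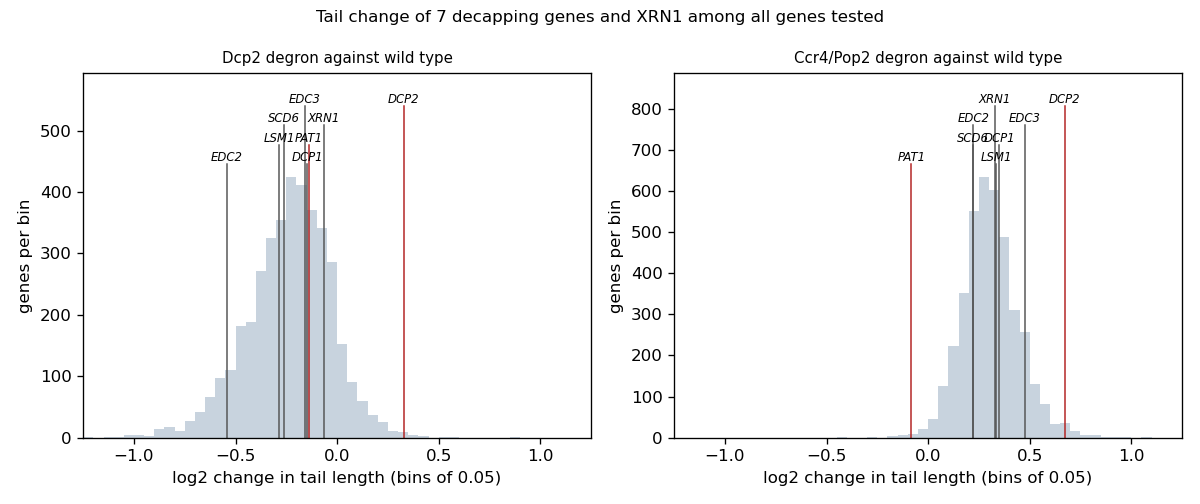
Number of genes per bin of log2 tail change against the wild type (bars, all 3949 genes tested), with lines for the 8 members in Dcp2 degron cells and the Ccr4/Pop2 degron. DCP2, tagged in Dcp2 degron cells, lies at 0.33 and 0.67, right of most genes in both panels. PAT1 at -0.082 lies left of nearly all genes in the second.

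EDC2 had the lowest tail change among the members in Dcp2 degron cells, with the larger part of it in replicate 1. Its tails were 47.9 and 55.9 nt in the wild type, 27.3 and 46.4 nt in Dcp2 degron cells, and 60.4 and 60.4 nt in Ccr4/Pop2 degron cells. The log2 tail change in Dcp2 degron cells was -0.54 ± 0.244 (SE; limma adjusted p = 0.270), with same-numbered differences of -0.81 and -0.27. In Ccr4/Pop2 degron cells it was 0.22 ± 0.244 (SE; limma adjusted p = 0.440).

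EDC3, DCP1 and LSM1 also had their longest tails in Ccr4/Pop2 degron cells. EDC3 tails were 38.5 and 41.7 nt in the wild type, 30.6 and 42.1 nt in Dcp2 degron cells, and 54.1 and 57.4 nt in Ccr4/Pop2 degron cells. DCP1 tails were 40.1 and 47.5 nt, 34.5 and 44.9 nt, and 54.9 and 56.2 nt in the same order. LSM1 tails were 37.6 and 42.9 nt, 31.4 and 34.7 nt, and 49.8 and 51.5 nt. In each of these genes the Ccr4/Pop2 degron stood above both other strains without overlap, with log2 tail changes against the wild type of 0.48, 0.35 and 0.33 (limma adjusted p-values 0.165, 0.184 and 0.171).

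SCD6 and XRN1 had tails below the median gene in Ccr4/Pop2 degron cells. SCD6 tails were 34.8 and 43.7 nt in the wild type, 32.5 and 32.6 nt in Dcp2 degron cells, and 44.9 and 46.0 nt in Ccr4/Pop2 degron cells. XRN1 tails were 36.3 and 34.4 nt, 34.2 and 33.4 nt (33.35 as listed), and 44.9 and 43.9 nt, with SDs between replicates of 0.615 to 1.32 nt, where every other member reached a larger SD in at least 1 strain. In Dcp2 degron cells the XRN1 tail change was -0.065 ± 0.115 (SE; limma adjusted p = 0.727), and both libraries lay below both wild-type libraries by a small margin. In Ccr4/Pop2 degron cells it was 0.33 ± 0.115 (SE; limma adjusted p = 0.165).

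DHH1 missed the minimum of 20 reads for tail length, since 3 of its libraries held 5, 9 and 6 reads. Its listed tails were 50.7 and 55.9 nt in the wild type, 57.3 and 72.0 nt in Dcp2 degron cells, and 70.4 and 68.3 nt in Ccr4/Pop2 degron cells. All 4 degron values exceeded both wild-type values. With no read minimum, over 4909 genes, its log2 tail changes were 0.27 in Dcp2 degron cells, 0.38 in Ccr4/Pop2 degron cells and 0.11 between the degrons, each ± 0.152 (SE; limma adjusted p = 0.317, 0.191 and 0.503). In replicate 2 of the Dcp2 degron, on 9 reads, 2 of the 4909 genes had a longer tail than DHH1, and in replicate 1 of that strain, on 24 reads, 27 genes had.

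Counting calls for tail length, limma called 0 of 8 members and 0% of all genes in Dcp2 degron cells against the wild type (793 genes at an unadjusted p under 0.05, among members DCP2), and likewise 0 members and 0% of genes in Ccr4/Pop2 degron cells (1136 genes unadjusted, among them 4 members). Between the degrons 7 of 8 members were called longer in Ccr4/Pop2 degron cells, against 69.6% of all genes, and PAT1 was the one not called. Shorter tails there were called for 0 members and 0.0253% of genes, and without overlap 7 members were longer, against 95.7%, and 0 shorter, against 0.127%. The smallest difference called was that of DCP2, at 0.34 ± 0.129 (SE; limma adjusted p = 0.0476), and the largest that of EDC2, at 0.76 ± 0.244 (SE; adjusted p = 0.0313), where all genes had a median of 0.53. With no read minimum DCP2 had an adjusted p of 0.0532 (limma). Centring each library on its median left 0 members and 0 genes called. Leaving out either Ccr4/Pop2 degron library, which leaves 1 library in that group, also left 0 of 3949 genes called, with a median difference over all genes of 0.54 and 0.51.

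Other genes of cap removal and 5′ to 3′ decay were taken as a list of 18, of which 17 were listed and PUF3 was not analysed here. Without the block edgeR called 0 of the 17 in all 3 comparisons. With the block 4 of 17 were called higher and 4 lower in Dcp2 degron cells against the wild type, against 17.6% and 19.7% of all genes. The median change of the 17 was -0.23, against -0.016 for all genes. Total-count scaling in the blocked model gave 8 higher and 1 lower, the latter being STM1, against 50.7% and 6.11% of all genes.

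DCS2, the paralog of the scavenger decapping enzyme gene DCS1, rose most in that comparison. It stood at 6.17 and 8.86 CPM in the wild type, 25.3 and 31.3 CPM in Dcp2 degron cells, and 12.9 and 11.7 CPM in Ccr4/Pop2 degron cells, on 12 and 11 reads in the wild type. With the block its log2 change in Dcp2 degron cells was 1.95 ± 0.325 (SE; edgeR adjusted p = 0.000126; 0.184 without). VTS1, an RNA-binding protein gene, and DXO1, which encodes a decapping and exonuclease enzyme, were called higher at 0.61 and 0.62 (edgeR with the block, adjusted p = 0.0237 and 0.0259). STM1, a ribosome-associated protein gene, stood at 2133 and 3254 CPM in the wild type and 942 and 1515 CPM in Dcp2 degron cells, a change of -1.14 with the block (edgeR adjusted p = 1.02e-06; 0.436 without). SBP1 and LSM4, which encode a translation repressor and another Lsm ring subunit, were called lower at -0.51 and -0.52 (edgeR with the block, adjusted p = 0.00555 and 0.0128), but total-count scaling brought them to 0.0092 and -0.0058.

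For Ccr4/Pop2 degron cells relative to the wild type, 0 of the 17 were called higher and 1 lower with the block, against 14.2% and 12.8% of all genes. The latter was STM1, at -0.43 (edgeR with the block, adjusted p = 0.00842; total-count scaling gave 3 higher and 1 lower, against 20.2% and 8.82% of all genes). Between the degrons 3 were called higher and 3 lower in Ccr4/Pop2 degron cells with the block, against 26.3% and 20.8% of all genes. The 3 higher ones were STM1, NGR1 and SBP1 (edgeR with the block, changes of 0.71, 0.95 and 0.40, adjusted p = 5.62e-05, 0.0115 and 0.0163). NGR1 rested on 9 and 16 reads in replicate 2 of the Dcp2 and Ccr4/Pop2 degrons. The 3 lower ones were DCS2, DXO1 and LSM6 (edgeR with the block, changes of -1.12, -0.90 and -0.39). Total-count scaling gave 1 higher, STM1 (0.32, edgeR with the block, adjusted p = 0.00996), and 8 lower, against 9.64% and 41.1%. For tail length limma called 0 of the 14 tested genes of this list in either degron against the wild type, and 11 of 14 longer in Ccr4/Pop2 degron cells than in Dcp2 degron cells, against 69.6% of all genes. Of the 6 genes for the other subunits of the Lsm1 ring, LSM2 to LSM7, all had their 2 longest tails in the Ccr4/Pop2 degron libraries, where 90.0% of all genes exceeded both wild-type tails and 95.7% both Dcp2 degron tails. LSM3 went from 23.4 and 23.3 nt in the wild type to 13.5 and 20.2 nt in Dcp2 degron cells and 41.0 and 41.1 nt in Ccr4/Pop2 degron cells.

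Genes with transcripts known as targets of Edc3 were examined beside the machinery. Counts are per gene. For YRA1 they do not separate unspliced from spliced RNA, so a change in either form alone cannot be read from them. RPS28B, a ribosomal protein gene, had level changes against the wild type of -0.18 in Dcp2 degron cells and -0.38 in Ccr4/Pop2 degron cells (edgeR adjusted p = 0.910 and 0.959; 0.264 and 0.0269 with the block). YRA1, an RNA export factor gene, had changes of -0.59 and -0.46 (edgeR adjusted p = 0.558 and 0.875; 0.0011 and 0.0079 with the block). Under total-count scaling with the block YRA1 was at -0.054 in Dcp2 degron cells (edgeR adjusted p = 0.716), and RPS28B turned to 0.36 there (0.00429). In Ccr4/Pop2 degron cells this setting gave -0.34 for YRA1 (edgeR adjusted p = 0.0252) and -0.22 for RPS28B, no longer called (0.111).

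Of the deadenylase genes, CCR4 was not analysed here. POP2 RNA stood at 70.5 and 49.9 CPM in the wild type, 51.9 and 34.4 CPM in Dcp2 degron cells, and 43.7 and 30.8 CPM in Ccr4/Pop2 degron cells, where it carries a tag. With the block its changes against the wild type were -0.48 and -0.69 (edgeR adjusted p = 0.0487 and 0.00694; 0.599 and 0.716 without), and the difference between the degrons was -0.21 (adjusted p = 0.364). Total-count scaling with the block gave 0.034, -0.59 and -0.62 (edgeR adjusted p = 0.898, 0.0161 and 0.00764).

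The genes whose level followed DCP2 most closely over the 6 libraries, among 4078 others with a mean of at least 20 CPM, were SUP45, DIF1 and AIM45, with Pearson coefficients of 0.993, 0.987 and 0.987. SUP45 stood at 399 and 403 CPM in the wild type, 240 and 221 CPM in Dcp2 degron cells, and 416 and 392 CPM in Ccr4/Pop2 degron cells. For XRN1 they were NAF1, ARC40 and PDA1, with coefficients of 0.994, 0.991 and 0.991, and these genes shared its lower level in replicate 2. With 6 libraries and this many candidates, such coefficients describe the libraries only.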

How the data were processed

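The authors deposited one table with a read count per gene and library, not normalized, and a median per gene and library, read as a median poly(A) tail length in nt from the name of the table, which refers to nanopolish. Per the submitters' processing notes, minimap2 and SAMtools 1.9 were used and the build was sacCer3, whose assembly is R64; the rule assigning reads to genes is not given in the sources used here. All listed genes have a value in each of the 6 libraries, and the lowest count in replicate 1 of each degron was 20. Columns were matched to samples by strain name; the unnumbered column was taken as replicate 1 because the other ends in 2. Columns of per-sample values matching no sample numbered 0.

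The 9 listed members passed the filter on low counts, and 8 had the 20 reads per library required for tail length. RNA level was tested with edgeR 4.0.16 in R 4.3.3 (TMM, filterByExpr, glmQLFit, glmQLFTest) on all 6 libraries and 4909 genes, and tail length with limma 3.58.1 on the log2 scale for 3949 genes, with Benjamini-Hochberg adjustment over all genes tested and calls at an adjusted p under 0.05. Alternatives for RNA level were DESeq2 1.42.0, other scalings and filters; for tail length, no read minimum, at least 50 reads, the nt scale and centring on the library median. edgeR standard errors were derived from the log2 change and the F statistic (absolute change over the root of F). Both procedures were run without the block on simulated data that held no effect of the replicate number. That check does not cover the blocked model or libraries with such an effect. The replicate numbers were taken to pair libraries for a measure when same-numbered libraries of every pair of groups deviated together (coefficient over 0.1). This held for RNA level and not for tail length, where the lowest was 0.0548. The pairing is a hint from the data: the labels do not state a shared culture or run. Members, pathway list and tests were chosen with earlier results of these data known; all members are named whatever their values, and of the pathway list at most 6 called genes per comparison.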

Additional observations from a re-analysis of the deposited data

How the results depend on the processing

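No member was called for RNA level under RLE size factors, total-count scaling, DESeq2, no filter, a minimum of 20 reads, fits of only the groups compared, a division of the library with multiples of 4 by 4, or any library left out. With the replicate block, and with the block and total-count scaling, 3, 1 and 5 members were called (Dcp2 degron against wild type, Ccr4/Pop2 degron against wild type, and Ccr4/Pop2 degron against Dcp2 degron, in this order throughout). Alternatives added after the data were seen joined the block with that division (3, 1 and 5), with that library left out (4, 0 and 2) and with only the groups compared (3, 2 and 2, where the second adds DHH1). Over all genes the block called 1834, 1327 and 2311, against 0, 4 and 0 without it, DESeq2 53, 33 and 155, and total-count scaling 5, 0 and 0.

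For tail length the pairing coefficients were 0.257, 0.148 and 0.0548, and the block called 0, 0 and 7 members and 3313 genes in the third comparison, against 2749. Fits of only the groups compared called 0, 5 and 4 members, and 2336 genes in the second, and centring on the library median called 0 members in the last. There no read minimum and a minimum of 50 reads called 6 each, without DCP2. The minimum of 50 reads leaves both DCP2 and PAT1 out of the test. With libraries left out in turn, the lone one being assumed to vary like other groups, counts ran from 0 to 3 in the first comparison (3, with 2073 genes, without replicate 2 of the Dcp2 degron) and from 0 to 7 in the third, and were 0 in the second.

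Some changes in RNA level turned sign. Total-count scaling without the block also moved the median change of all genes, to 0.51, 0.12 and -0.31. Causes of the other sign changes were not tested. Dcp2 degron against wild type: total-count scaling gave 0.083 for EDC3, 0.32 for DHH1, 0.36 for LSM1, 0.25 for SCD6 and 0.33 for XRN1, and with the block 0.083, 0.39, 0.36, 0.33 and 0.36. Ccr4/Pop2 degron against wild type: DCP1 was 0.044 and 0.037 under these settings, and the block without replicate 1 of the Ccr4/Pop2 degron gave -0.13 for DCP2 and -0.018 for EDC3. Between the degrons total-count scaling gave -0.28 for EDC2, -0.0078 for SCD6 and -0.38 for XRN1, and with the block -0.26, -0.055 and -0.42. XRN1 was there also -0.026 with RLE factors and with DESeq2, -0.066 with the minimum of 20 reads, -0.035 with only the groups compared, -0.010 with the block, -0.0035 after division by 4, and -0.024, -0.20 and -0.061 with the block and the division, the library left out, or only these groups.

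Centring turned tail changes to 0.069 for DCP1, 0.059 for EDC3, 0.077 for PAT1 and 0.15 for XRN1 in the first comparison, -0.11 for EDC2, -0.11 for SCD6 and -0.0035 for XRN1 in the second, and -0.053 for DCP1, -0.21 for DCP2, -0.49 for PAT1, -0.067 for SCD6 and -0.15 for XRN1 in the third.

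Leaving out single libraries turned the sign of RNA level changes in the first comparison for DHH1 (-1.27 to 1.23), PAT1 (-1.27 to 0.037), LSM1 (-0.32 to 0.0075), SCD6 (-0.70 to 0.47) and XRN1 (-0.48 to 0.20). In the second it did so for DCP1 (-0.58 to 0.30), DCP2 (-0.097 to 0.16), EDC3 (-0.089 to 0.20), DHH1 (-1.41 to 0.77), PAT1 (-0.16 to 1.14), SCD6 (-0.34 to 0.84) and XRN1 (-0.68 to 0.18). In the third it did so for DCP1 (-0.026 to 1.17), EDC2 (-0.073 to 0.38), DHH1 (-1.19 to 0.61), SCD6 (-0.060 to 0.71) and XRN1 (-0.51 to 0.35). Tail changes turned for DCP1 (-0.34 to 0.043), EDC3 (-0.39 to 0.072) and PAT1 (-0.30 to 0.021) in the first, and for PAT1 in the second (-0.20 to 0.039) and the last (-0.10 to 0.22). Depth limits DHH1 most: 3 reads equal 0.321 to 2.42 CPM across libraries.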
